A study of Rattus norvegicus with 6 samples.

Results

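Potassium channel genes were followed in the brain of rats after a stroke. The set held every gene whose symbol starts with Kcn and that was measured by a probe set with 1 gene symbol, apart from Kcnj10 and Kcnj13, which were left out. Where a gene had several probe sets, the brightest on average was used, and a gene was kept if it reached the 40th percentile of its array on at least 1 array. This gave 70 potassium channel genes of 10947 genes tested. The 81 genes that met the rule on symbols were measured by 83 probe sets, and 11 of them stayed below the filter (Kcna7, Kcne1, Kcne3, Kcnh6, Kcnh8, Kcnj1, Kcnj15, Kcnmb2, Kcnmb3, Kcnq1 and Kcnv2).

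The study profiled total RNA of young and aged male Sprague-Dawley rats on 6 whole-transcript Affymetrix arrays. Perilesional brain tissue was taken 3 d or 14 d after the middle cerebral artery had been lifted for a time with a hook to stop its flow, and naive animals without a stroke gave healthy brain tissue. Young animals were 3 to 4 months old (3 to 5 months when naive), and aged animals 19 to 20 months (18 to 20 months when naive). Each of the 6 groups was 1 array of pooled RNA, from 19 young or 23 aged animals at each time after stroke and from 15 naive animals of each age, so the spread between animals was not measured. No sham-operated group was analysed here. The naive tissue is labelled only as healthy brain, while the series title speaks of the ipsilateral cortex.

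Potassium channels let potassium leave or enter a cell down its gradient and so set the resting potential, the shape of the action potential and the firing pattern of neurons. Voltage-gated pore subunits (Kcna to Kcnd, Kcnh, Kcnq) open on depolarization, silent subunits (Kcnf, Kcng, Kcns, Kcnv) modify a partner pore, and accessory subunits (Kcnab, Kcne, Kcnip, Kcnmb) tune trafficking and gating. Inward rectifiers (Kcnj) and two-pore-domain channels (Kcnk) hold the resting potential, and calcium- or sodium-activated channels (Kcnma, Kcnn, Kcnt) follow ion entry. Most of these genes are known from neurons, and a few, such as Kcnn4 and Kcnk6, also from immune cells.

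Most potassium channel genes that changed after stroke were lower than in naive brain. At 3 d, 28 of the 70 genes fell and 3 rose, against backgrounds of 7.87% of all genes lower and 14.4% higher, so 40.0% of the channel genes fell. At 14 d, 33 fell (47.1%) and 3 rose, against 11.4% lower and 13.6% higher among all genes. The median log2 change of the 70 genes was -0.37 at 3 d and -0.43 at 14 d, beside -0.03 and -0.05 over all genes. Changes come from limma's fit of age and time over the 6 arrays, given as a log2 change ± SE, with p-values adjusted over all 10947 genes and called under 0.05. A time effect rests on 2 arrays per time point, 1 of each age, and both times are set against the same pair of naive arrays.

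**Figure D1:**
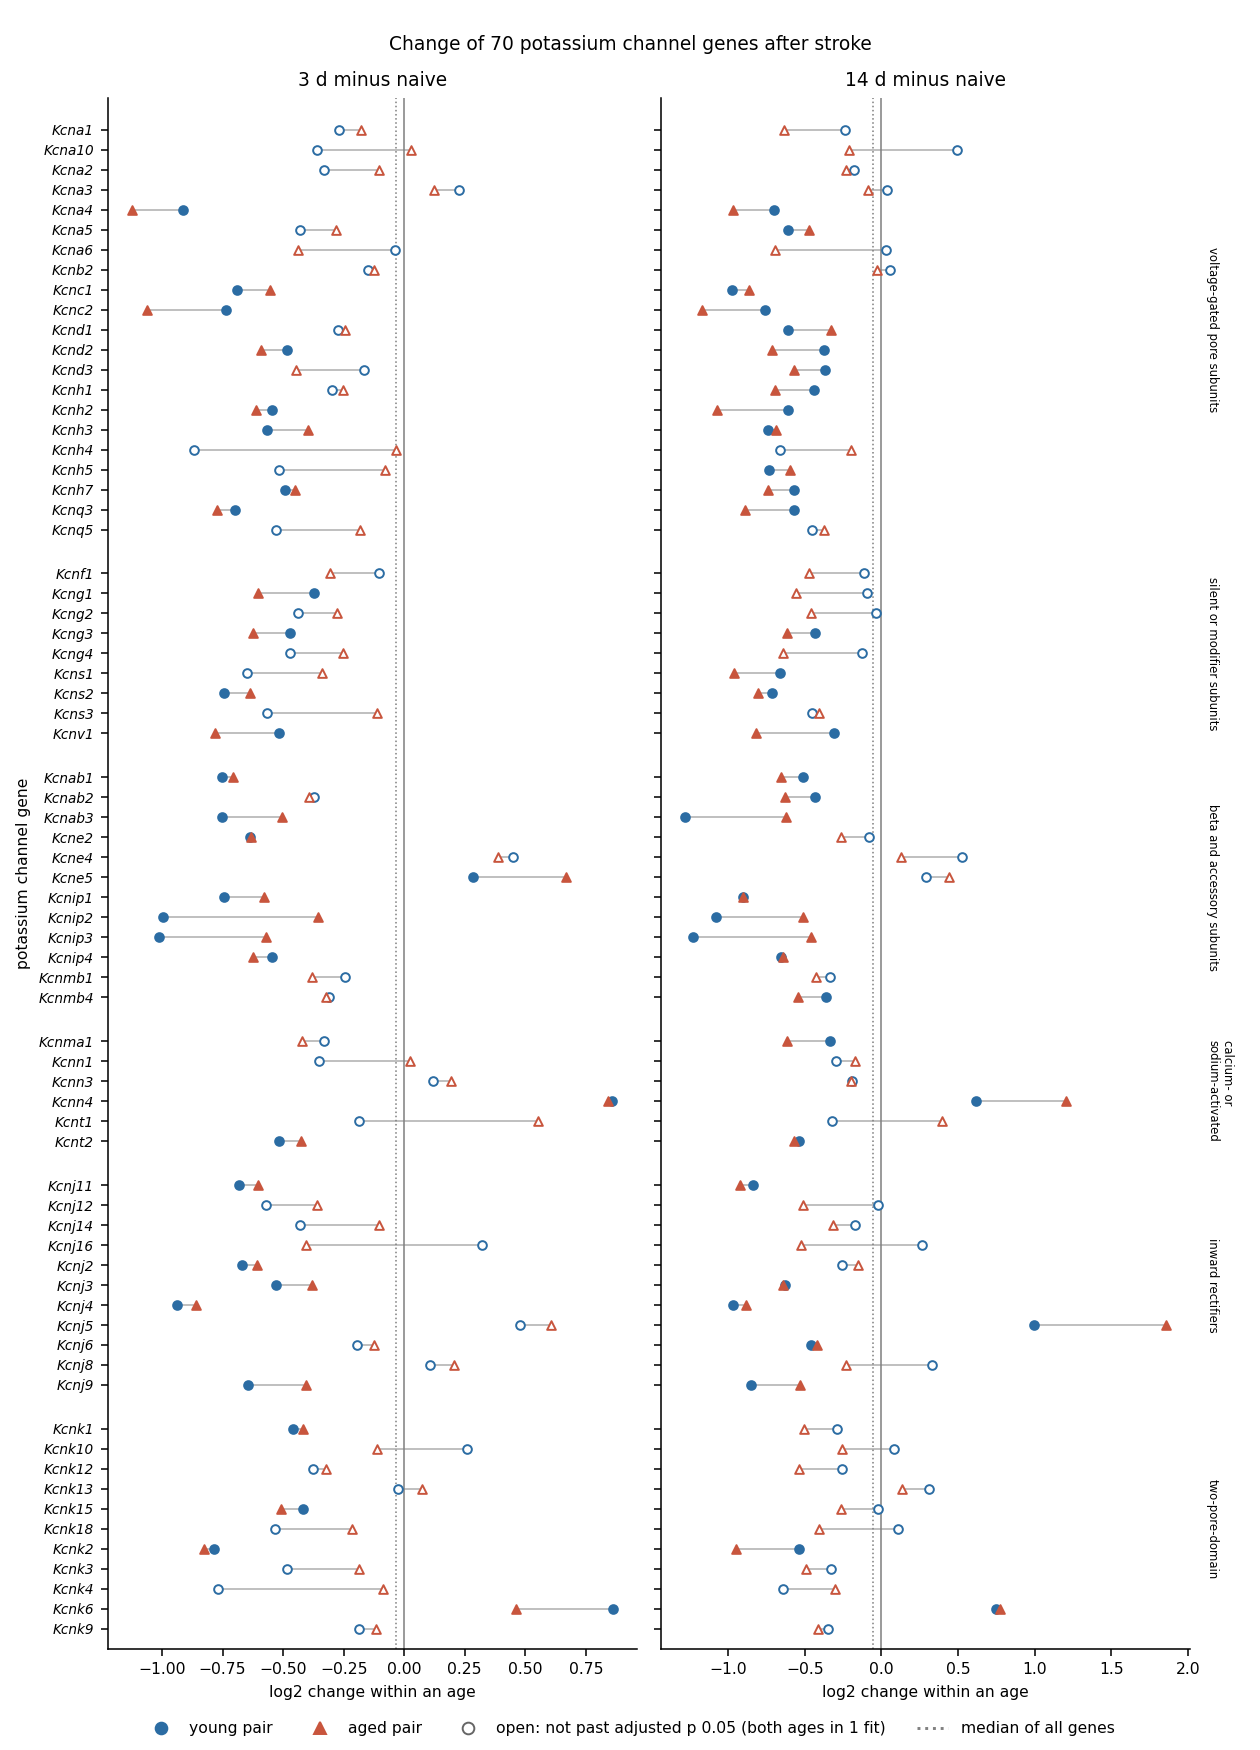
Log2 change of each of the 70 potassium channel genes from naive to 3 d (left) and to 14 d (right), in the young pair (circles) and the aged pair (triangles) of arrays, ordered by class, with open symbols for genes that did not pass and a dotted line at the median of all genes. Most symbols lie left of 0 at both times, and Kcnn4, Kcnk6 and, at 14 d, Kcnj5 lie to the right.

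Of the 70 genes, 63 were at or above the 40th percentile on all 6 arrays. The other 7 were not: Kcnj5 and Kcnk6 reached it on the 4 stroke arrays only, Kcns3 on the 2 naive arrays only, and Kcna10, Kcne4 and Kcnmb1 on 1 to 5 arrays. Kcnk15 reached it on both naive arrays and the young 14 d array but on neither 3 d array. It was among the genes lower at 3 d (-0.46), so that call was not independent of the filter. The call ended with no filter (limma adjusted p = 0.0547), with trended and robust variances (0.0869) and with age left out (0.0575). A gene that entered through 1 condition was bound to differ, and with no filter on 81 channel genes 25 fell at 3 d and 29 at 14 d. Both 3 d arrays lay below both naive arrays for 54 channel genes (77.1%), against 38.1% of all genes, and above both for 8 (33.8% of all genes). At 14 d both arrays lay below for 50 channel genes (71.4%, against 37.9%) and above for 6 (28.3%).

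The calls depended on single arrays. Of the naive arrays, leaving out the young one turned the 28 genes lower at 3 d into 6 and leaving out the aged one into 4. Dropping the young array of 3 d gave 3, dropping the aged one gave 18, and dropping either array of 14 d gave 37. The 33 genes lower at 14 d became 11 when the young and 8 when the aged naive array was dropped, and 42 or 24 when the young or the aged array of 14 d was. The 3 genes higher at 3 d became 1 without the young and 0 without the aged naive array, 0 and 2 without the young and the aged 3 d array, and 5 without either 14 d array, when Kcne4 and Kcnj5 joined. The 3 higher at 14 d became 2 and 1 without the young and the aged naive array and 5 without the aged 14 d array, when Kcna10 and Kcne4 joined. Kcna10 had reached the 40th percentile on the young 14 d array alone, so its joining was bound to the filter. No called gene changed direction under any alternative, and the calls of Kcna4 and Kcnj4 at 3 d and of Kcnc1, Kcnip1, Kcnj11, Kcnj4 and Kcnj5 at 14 d passed under all of them. With each array's median set equal, 41 channel genes fell at 14 d and 3 rose. The share of higher genes among all called genes at 14 d then dropped from 54.5% to 44.2%.

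Cell type markers also changed after stroke, some lists upward and others downward. All 8 microglia and macrophage markers rose at both times, with medians of 1.48 and 1.52, and their summed log2 level went from 63.9 and 66.5 on the young and aged naive arrays to between 78.1 and 82.4 on the stroke arrays. Among 10 neuronal markers 2 fell at 3 d and 7 at 14 d (medians -0.35 and -0.50), and their summed level went from 114.6 and 114.3 to between 108.4 and 110.7. All 7 measured striatal markers fell at both times (medians -1.19 and -0.99), with a summed level of 70.7 and 67.3 on the naive arrays and 59.4 to 63.6 after stroke. Of 7 thalamic markers, 4 fell at each time and 1 rose at 3 d, with medians of -1.19 and -1.22. Of the cortical glutamatergic markers, Slc17a7 and Fezf2 were measured, and neither passed at 3 d (changes of -0.17 and -0.21) or at 14 d (-0.38 and -0.33). Of the remaining lists, 2 of 7 astrocyte markers rose and 1 fell at 3 d and 4 rose at 14 d, 3 of 7 oligodendrocyte markers fell at 3 d and 1 at 14 d, and 1 of 4 oligodendrocyte precursor markers rose at 3 d and 3 at 14 d. Endothelial markers rose in 3 of 6 at each time, pericyte and smooth muscle markers in 4 of 7 and 3 of 7, and meningeal markers in 2 of 5 at 3 d and all 5 at 14 d (median 2.07). Some of these markers, too, were not at or above the 40th percentile on every array. On all arrays 6 of 8 microglia and macrophage, 4 of 7 thalamic and 4 of 5 meningeal markers were. Cd14 and the meningeal Lum entered through their stroke arrays alone and the thalamic Shox2 through the aged naive array alone, so these were bound to differ. The part of the cell and region mix in the channel results was not tested. In bulk tissue fewer cells of a type and less RNA per cell cannot be told apart.

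The following promoters show the span of the set: Kcnj5 is the gene with the largest rise, Kcna4 the gene with the largest fall at 3 d, and Kcnc1 a gene whose fall at 14 d passed under every alternative. The sequences run from 250 bases before to 50 bases after the start of the gene, 5' to 3' on the gene's strand, and come from RefSeq on GRCr8 at chr8:39011047-39011346 (minus strand), chr3:114215086-114215385 (plus strand) and chr1:106038997-106039296 (plus strand). Capitals mark GGGCGG, the GC box, on either strand.
Kcnj5: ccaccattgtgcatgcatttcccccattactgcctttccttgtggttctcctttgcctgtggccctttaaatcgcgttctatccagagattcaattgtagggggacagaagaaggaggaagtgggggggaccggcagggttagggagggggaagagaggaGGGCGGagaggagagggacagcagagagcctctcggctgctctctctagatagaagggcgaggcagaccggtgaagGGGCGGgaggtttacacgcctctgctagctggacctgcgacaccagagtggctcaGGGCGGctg
Kcna4: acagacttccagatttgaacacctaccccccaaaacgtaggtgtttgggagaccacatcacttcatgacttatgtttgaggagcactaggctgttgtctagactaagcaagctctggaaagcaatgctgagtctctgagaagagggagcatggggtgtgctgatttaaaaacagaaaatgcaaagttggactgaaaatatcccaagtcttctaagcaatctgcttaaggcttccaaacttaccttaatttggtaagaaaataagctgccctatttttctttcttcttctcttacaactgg
Kcnc1: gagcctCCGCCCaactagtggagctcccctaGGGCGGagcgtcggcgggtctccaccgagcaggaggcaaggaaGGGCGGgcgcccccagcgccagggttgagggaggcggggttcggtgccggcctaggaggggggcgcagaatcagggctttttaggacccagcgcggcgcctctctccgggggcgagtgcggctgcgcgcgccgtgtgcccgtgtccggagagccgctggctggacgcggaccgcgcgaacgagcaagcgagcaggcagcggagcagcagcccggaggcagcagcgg
The Kcnj5 and Kcnc1 windows each held 3 GC boxes, at 59% and 74% GC, and the Kcna4 window held none, at 41.7% GC. A promoter was found in the RefSeq table for 47 of the 70 channel genes, 5 of them with 2 entries. These windows had a median GC content of 64.7% (34% to 80.7%), against 51.7% over all 33469 promoters, and 25 of 47 (53.2%) held GGGCGG, against 33.1% of all. TTCNNNGAA, the STAT site, was found in 5 (Kcna6, Kcnc2, Kcnd3, Kcnk4 and Kcnt2; 10.6% against 8.87%), and TGANTCA, the AP-1 site, in Kcnj16 (7.33% of all). No window held TGACGTCA, the cyclic AMP response element (1.83% of all), or TTCAGCACC, the left part of the element read by the neuronal repressor REST (0.356% of all). Channel genes were counted by gene, with a match in either entry and GC averaged over entries. The background counts single promoter entries and is not limited to the genes tested, so the shares are not on the same unit. Both strands were searched, none of these motifs contains another, and a match to letters is a description and not a bound site.

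Few channel genes rose, and Kcnj5 rose most. It encodes a G protein-gated inward rectifier subunit that is best known from heart and adrenal cortex. Its log2 level was 6.17 and 6.20 on the young and aged naive arrays, 6.65 and 6.81 at 3 d, and 7.16 and 8.06 at 14 d. All 4 stroke arrays lay above both naive arrays, with the aged 14 d array highest. The change at 14 d was 1.43 ± 0.21 (limma, 2 arrays per time, adjusted p = 0.00284), and that at 3 d was 0.54 (adjusted p = 0.0997) and did not pass. The naive values lay below the 40th percentile of their arrays, so the gene entered the set through its stroke arrays alone and its test is not independent of that choice. With no filter on dim probe sets the 14 d adjusted p was 0.00258. Its partners among the G protein-gated rectifiers, Kcnj3, Kcnj6 and Kcnj9, fell at 14 d, Kcnj3 by 0.64 on the log2 scale (adjusted p = 0.00883, but 0.0846 without the aged naive array and 0.0814 without the young naive array). The Kcnj6 call ended with any 1 array left out (adjusted p = 0.0508 to 0.183), and the Kcnj9 call without the young naive array (0.0947).

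Kcnn4 encodes the intermediate-conductance calcium-activated channel of microglia, lymphocytes and red cells. Its level was 6.84 and 6.82 on the naive arrays, 7.70 and 7.66 at 3 d, and 7.46 and 8.02 at 14 d. All 4 stroke arrays lay above the naive pair, and ages were close at 3 d and apart at 14 d. The gene rose by 0.85 ± 0.17 at 3 d (limma adjusted p = 0.0118, 1.80-fold) and by 0.91 ± 0.17 at 14 d (adjusted p = 0.00851, 1.88-fold). These calls ended without the aged naive array (adjusted p = 0.148 and 0.119), and at 3 d also without the young 3 d array (0.0797). The microglia and macrophage markers rose on the same arrays, for example Itgam, an integrin of these cells, by 2.51 and 2.76. Of 7 genes listed as T cell markers 3 were measured (Cd4, Cd8a and Lck), of which 2 rose at 3 d (Cd4 and Cd8a) and 1 at 14 d (Cd4). Whether Cd4 came from T cells in this tissue was not tested. Their summed log2 level was 21.0 and 21.7 on the naive and 23.2 to 24.8 on the stroke arrays. At 3 d and 14 d Cd4 changed by 0.79 and 2.11, Cd8a by 1.42 and 1.01, and Lck by 0.03 and -0.18. Lck passed at neither time and Cd8a not at 14 d. Only 1 of the 3, Cd4, reached the 40th percentile on every array, and Lck reached it on the aged 3 d array alone. Cd8a (6.31 and 6.21 when naive) reached it on the stroke arrays alone. Its 3 d call ended with trended and robust variances, and without either naive array or the young 3 d array. The part of the microglia, macrophage and T cell markers in the rise of Kcnn4 was not tested.

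Kcnk6, a two-pore-domain channel known to pass potassium out of macrophages, had levels of 6.19 and 6.33 on the naive arrays, 7.05 and 6.79 at 3 d, and 6.94 and 7.10 at 14 d. The naive values were below the 40th percentile and the stroke values above it, so this gene too entered through its stroke arrays alone. It rose by 0.66 ± 0.15 at 3 d (limma adjusted p = 0.0164) and 0.76 ± 0.15 at 14 d (adjusted p = 0.00907), and with no filter the adjusted p was 0.0216 and 0.0118. The 3 d call ended without the young naive (adjusted p = 0.139), aged naive (0.0895) or young 3 d array (0.202), and the 14 d call without the young naive (0.0899) or aged naive array (0.0643). Kcne5, an accessory subunit that slows or blocks Kcnq and other pores, was at 7.91 and 7.82 on the naive arrays, 8.20 and 8.49 at 3 d, and 8.21 and 8.26 at 14 d. It rose by 0.48 ± 0.14 at 3 d (adjusted p = 0.0428), with 0.37 at 14 d not passing (adjusted p = 0.0883). The 3 d call was the least firm of the rises. It ended under quantile normalization (adjusted p = 0.0760), with equal array medians (0.0547), with no filter (0.0614), and when any one of the naive (young 0.0914, aged 0.358) or 3 d arrays (young 0.0714, aged 0.311) was dropped.

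**Figure D2:**
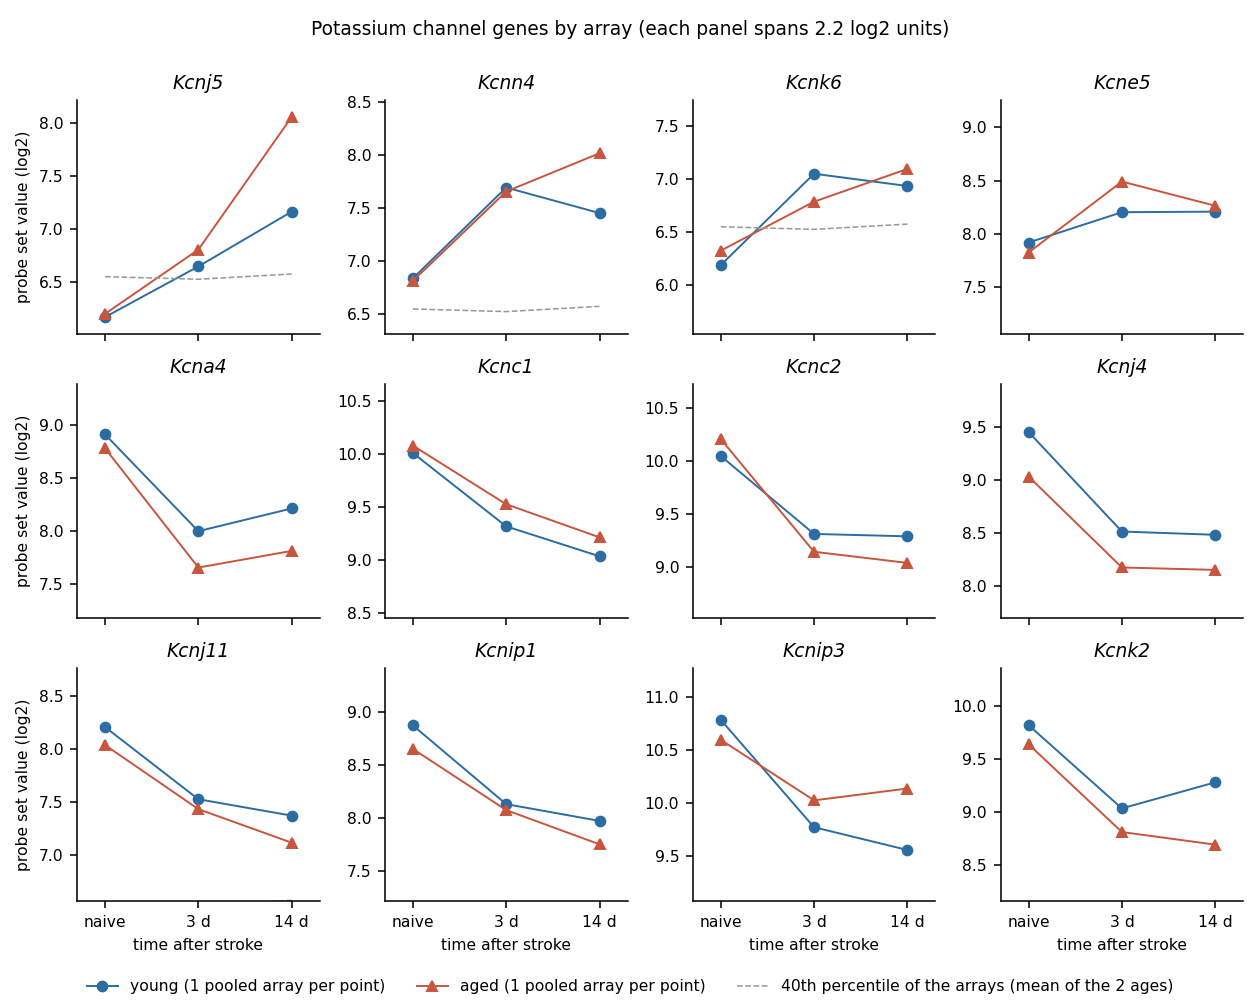
Log2 probe set value of 12 potassium channel genes on each of the 6 arrays by time after stroke, with circles for young and triangles for aged pools and a dashed line at the mean 40th percentile of the 2 arrays of a time, where it falls within the panel. Kcnj5, Kcnn4, Kcnk6 and Kcne5 in the top row lie higher on every stroke array than on the naive arrays, and the other 8 genes lie lower.

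Among 21 voltage-gated pore subunits, 8 fell at 3 d and 13 at 14 d, and none rose (medians -0.36 and -0.54). Kcna4, a fast-inactivating A-type channel of axons and terminals, was at 8.91 and 8.78 on the naive arrays, 7.997 and 7.65 at 3 d, and 8.21 and 7.81 at 14 d. Every stroke array lay below the naive pair, and the aged arrays below the young. It fell by 1.02 ± 0.13 on the log2 scale at 3 d (limma adjusted p = 0.00151, 2.03-fold) and by 0.83 ± 0.13 at 14 d (adjusted p = 0.00365). The 14 d call ended without the aged naive array (-0.71, adjusted p = 0.0669). The abundant dendrotoxin-sensitive relative Kcna2 changed by -0.22 at 3 d and -0.21 at 14 d and did not pass (adjusted p = 0.256 and 0.283).

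Both measured Kcnc genes, whose fast channels let interneurons fire at high rates, fell at both times. Kcnc2 was at 10.04 and 10.20 on the naive arrays, 9.31 and 9.14 at 3 d, and 9.29 and 9.03 at 14 d. Kcnc1 was at 10.01 and 10.08 on the naive arrays, 9.31 and 9.52 at 3 d, and 9.03 and 9.21 at 14 d. The stroke arrays of each gene lay below its naive arrays, and the Kcnc1 values were lower at 14 d than at 3 d at both ages. Kcnc2 fell by 0.90 ± 0.14 and 0.96 ± 0.14 on the log2 scale (limma adjusted p = 0.00411 and 0.00301) and Kcnc1 by 0.62 ± 0.12 and 0.92 ± 0.12 (0.00959 and 0.00181). Without the aged naive array the Kcnc2 calls ended (adjusted p = 0.0677 and 0.0532), and the Kcnc1 call at 3 d ended without that array (0.0748), the young naive (0.0988) or the young 3 d array (0.0963). Pvalb, the calcium buffer of fast-spiking interneurons, fell by 0.68 and 0.87 on the log2 scale on the same arrays, and of 8 interneuron markers 4 fell at 3 d and 5 at 14 d. The Pvalb call at 3 d ended without the young 3 d array (adjusted p = 0.109) or either naive array. The part of these markers in the Kcnc result was not tested.

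The other voltage-gated genes followed in part. Kcnd2, the main dendritic A-type pore, fell by 0.54 at each time (limma adjusted p = 0.0256 and 0.0225, but 0.253 and 0.237 without the aged naive array, 0.0783 and 0.0709 without the young naive array, and 0.0951 and 0.0854 with age left out). Its 3 d call also ended without the young (0.171) or aged 3 d array (0.0868) and its 14 d call without the aged 14 d array (0.106). All 3 Kcnd genes were called lower at 14 d, but the calls of Kcnd1 and Kcnd3 ended with no filter (limma adjusted p = 0.0521 and 0.0512). Over all alternatives the 14 d change ranged from -0.60 to -0.34 for Kcnd1 and from -0.59 to -0.35 for Kcnd3. Kcnq3, a subunit of the M-current that brakes repetitive firing, fell by 0.74 and 0.73 (adjusted p = 0.00699 and 0.00711, but 0.105 and 0.107 without the aged naive array, and 0.0548 at 3 d without the young 3 d array). Its relative Kcnq5 changed by -0.36 and -0.41 without passing (adjusted p = 0.0970 and 0.0580). In the Kcnh family of eag-, erg- and elk-type channels, 3 of 6 genes fell at 3 d and 5 of 6 at 14 d. The erg channel Kcnh2 was at 8.56 and 8.66 on the naive arrays, 8.01 and 8.05 at 3 d, and 7.95 and 7.59 at 14 d, lower on every stroke array. It fell by 0.58 and 0.84 on the log2 scale (adjusted p = 0.0295 and 0.00658), with the calls ending without the aged naive array (0.278 and 0.101) and the 3 d call also without the young naive (0.0783), young 3 d (0.202) or aged 3 d array (0.0586). Kcnb2, a delayed rectifier, changed by -0.14 and 0.01 and passed at neither time (adjusted p = 0.436 and 0.951).

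Of 9 silent subunits, 4 fell at each time (medians -0.49 and -0.43). These subunits do not form channels alone and join Kcnb pores. Kcns2 was at 8.40 and 7.93 on the naive arrays, 7.66 and 7.29 at 3 d, and 7.68 and 7.12 at 14 d. The aged array was lower than the young at each time, and all stroke arrays lay below both naive arrays. Kcns2 fell by 0.69 and 0.76 on the log2 scale (limma adjusted p = 0.00668 and 0.00450), and Kcnv1, which silences or shifts Kcnb currents, by 0.65 and 0.56 (0.0193 and 0.0297). With age left out of the model these calls ended (adjusted p = 0.0841 and 0.0582 for Kcns2, 0.127 and 0.167 for Kcnv1). Without the aged naive array they ended too (0.0798 and 0.0603 for Kcns2, 0.226 and 0.301 for Kcnv1, whose 14 d change was then -0.37). At 3 d the Kcns2 call ended as well without the young naive (0.0649) or young 3 d array (0.0774) and the Kcnv1 call without the young (0.0875) or aged 3 d array (0.0696), and at 14 d the Kcnv1 call without the aged 14 d array (0.140). Kcns1 fell by 0.81 at 14 d (adjusted p = 0.0103, but 0.102 without the aged naive and 0.0760 without the young naive array), and the -0.49 at 3 d did not pass (0.0641).

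The accessory subunits held the highest share of falling genes, with 7 of 12 lower at 3 d and 8 of 12 at 14 d, and Kcne5 higher at 3 d (medians -0.61 and -0.56). All 4 measured Kcnip genes, calcium-binding partners that carry Kcnd channels to the membrane, fell at both times. Kcnip1 was at 8.88 and 8.65 on the naive arrays, 8.13 and 8.08 at 3 d, and 7.98 and 7.75 at 14 d. Kcnip3, which also acts as a calcium-dependent repressor of transcription, was at 10.79 and 10.60, then 9.77 and 10.03, then 9.56 and 10.14. In both genes every stroke array lay below the naive arrays, and in Kcnip3 the aged arrays were lower than the young when naive and higher after stroke. Kcnip1 fell by 0.66 ± 0.12 and 0.90 ± 0.12 on the log2 scale (limma adjusted p = 0.00809 and 0.00214), Kcnip3 by 0.79 ± 0.18 and 0.84 ± 0.18 (0.0198 and 0.0148), and Kcnip2 by 0.68 and 0.80 (0.0294 and 0.0150). The Kcnip3 and Kcnip2 calls ended without the young naive array (Kcnip3 -0.49 and -0.54, adjusted p = 0.165 and 0.125, and Kcnip2 -0.37 and -0.49, 0.226 and 0.122) and at 3 d without the young 3 d array (0.0744 and 0.221). The Kcnip1 call at 3 d ended without the young naive (0.0821), aged naive (0.0759) or young 3 d array (0.0963). A second probe set of Kcnip2, at or above the 40th percentile on all 6 arrays, changed by -0.53 and -0.46. The second probe set of Kcnip1 changed by -0.57 at both times. It was dim, with a mean level of 6.15, and reached the 40th percentile on 1 array only.

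The Kcnab genes encode the cytoplasmic beta subunits of Kcna channels, and 2 of 3 fell at 3 d and 3 of 3 at 14 d. Kcnab3 was at 8.28 and 7.98 on the naive arrays, 7.53 and 7.47 at 3 d, and 7.00 and 7.36 at 14 d, all stroke values being lower than both naive values. It fell by 0.63 and 0.95 (limma adjusted p = 0.0348 and 0.00671), and Kcnab1 fell by 0.73 and 0.58 (0.00546 and 0.0130). Without the young naive array these calls ended (adjusted p = 0.259, with a change of -0.40, and 0.0715 for Kcnab3, 0.0505 and 0.0810 for Kcnab1). Without the aged naive array those of Kcnab1 (0.0769 and 0.134) and that of Kcnab3 at 3 d (0.0627) ended too. The 3 d calls also ended without the young 3 d array (0.0551 for Kcnab1, 0.101 for Kcnab3), that of Kcnab3 without the aged 3 d array (0.112), and the 14 d call of Kcnab1 with age left out (0.0626). Kcne2, an accessory subunit abundant in choroid plexus, was at 7.36 and 7.51 on the naive arrays, 6.73 and 6.87 at 3 d, and 7.28 and 7.24 at 14 d. It was lowest at 3 d, and at 14 d both values still lay just below the naive ones. At 3 d it fell by 0.64 ± 0.12 (adjusted p = 0.00994, but 0.123 without the aged naive, 0.0658 without the young naive and 0.0953 without the young 3 d array). At 14 d its change was -0.17 (adjusted p = 0.341). Of 5 choroid plexus markers 4 fell at 3 d (median -1.07) and none at 14 d, when 1 rose (median 0.10), and their part in the Kcne2 result was not tested.

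Of 11 inward rectifiers, 5 fell at each time, and Kcnj5 rose at 14 d (medians -0.45 and -0.27). Kcnj4, a strong inward rectifier of forebrain neurons, was at 9.45 and 9.03 on the naive arrays, 8.51 and 8.17 at 3 d, and 8.48 and 8.15 at 14 d. All stroke arrays lay below the naive pair, and aged arrays lay below young ones at each time. It fell by 0.90 ± 0.12 and 0.93 ± 0.12 on the log2 scale (limma adjusted p = 0.00186 and 0.00168). Kcnj11, the pore of the ATP-sensitive channel that opens when cell energy drops, fell by 0.64 ± 0.12 and 0.88 ± 0.12 (adjusted p = 0.00857 and 0.00224), and the 3 d call ended without the young naive (0.0748), aged naive (0.0962) or young 3 d array (0.0941). Its sulfonylurea receptor partner Abcc8 changed by -0.14 and -0.30 without passing (0.504 and 0.157). Kcnj2 was at 8.29 and 7.95 on the naive arrays, 7.62 and 7.35 at 3 d, and 8.03 and 7.80 at 14 d, lowest at 3 d at both ages. This strong rectifier fell by 0.64 ± 0.12 at 3 d (adjusted p = 0.00817, but 0.0840 without the young naive, 0.0765 without the aged naive and 0.0701 without the young 3 d array) and its -0.20 at 14 d did not pass (0.246). Kcnj16, the partner of Kcnj10 in astrocytes, was at 7.50 on the young and 8.43 on the aged naive array and between 7.76 and 8.03 after stroke, so that the stroke values lay between the naive ones.

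Of 11 two-pore-domain genes, 3 fell at 3 d (27.3%, against 7.87% of all genes) and 1 at 14 d (9.09%, against 11.4%). The share lower at 14 d was thus near that of all genes. Kcnk6 alone rose, at both times (9.09%, against 14.4% and 13.6% of all genes). The class medians were -0.35 and -0.38. Kcnk15, below the 40th percentile on both 3 d arrays, was 1 of the 3 lower at 3 d. Kcnk2, a leak channel opened by stretch and lipids, was at 9.82 and 9.64 on the naive arrays, 9.03 and 8.81 at 3 d, and 9.28 and 8.69 at 14 d, lower on each stroke array. It fell by 0.81 ± 0.14 and 0.74 ± 0.14 on the log2 scale (limma adjusted p = 0.00668 and 0.00906, but 0.101 and 0.125 without the aged naive array, and 0.05002 at 3 d without the young 3 d array). Kcnk1, a weakly conducting leak channel, fell by 0.44 at 3 d (0.0444), and this ended with no filter (0.0669) and without any naive or 3 d array (0.110 to 0.332). Among 6 calcium- or sodium-activated channels, 1 fell at 3 d and 2 at 14 d (16.7% and 33.3%, against 7.87% and 11.4% of all genes). Kcnn4 rose at both times (16.7%, against 14.4% and 13.6%). Kcnma1, the large-conductance channel, fell by 0.48 at 14 d (adjusted p = 0.0320, but 0.281 without the aged naive, 0.0955 without the young naive, 0.147 without the aged 14 d array and 0.0732 with age left out). Its -0.38 at 3 d did not pass (0.0744). Kcnt2, a sodium-activated channel, fell by 0.47 and 0.56 (0.0277 and 0.0140, but 0.181 and 0.122 without the aged naive and 0.157 and 0.101 without the young naive array; at 3 d also 0.245 and 0.0969 without the young or aged 3 d array and 0.0708 with age left out).

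**Figure D3:**
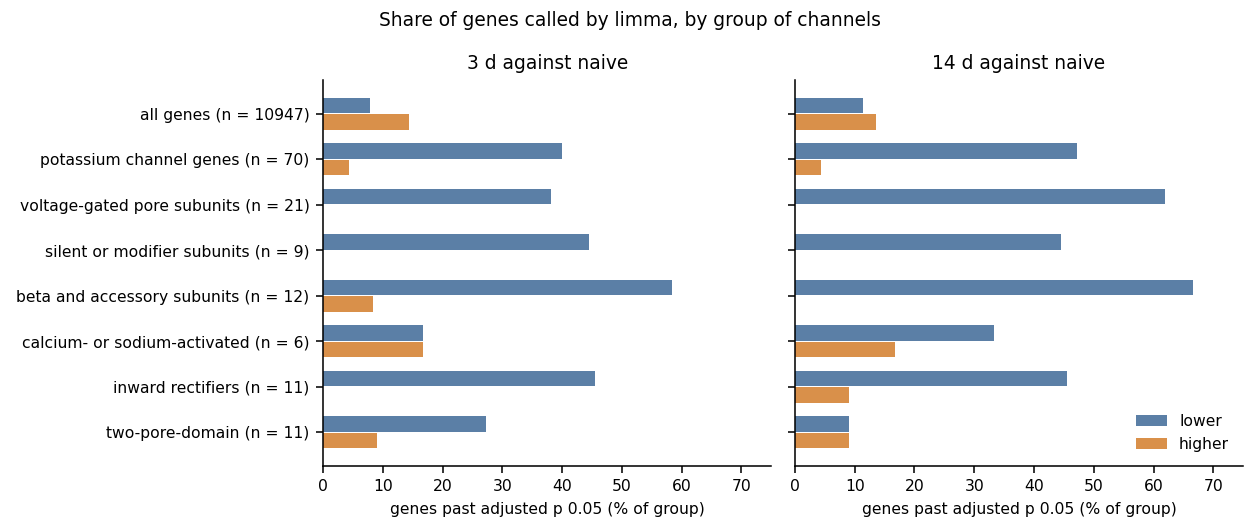
Share of genes past an adjusted p of 0.05 in limma's fit, in percent of each group, lower (blue) and higher (orange) than naive at 3 d (left) and 14 d (right), for all 10947 genes, the 70 potassium channel genes and their 6 classes. The share of falling genes is highest among accessory subunits at both times, and each of the 3 rising genes of a time belongs to a different class.

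Between 14 d and 3 d no channel gene passed the test in either direction, where 1.34% of all genes were higher and 1.82% lower at 14 d. At an unadjusted p under 0.05, limma found 8 of 70 channel genes and 1281 of all genes. Kcnj5 had the largest rise, 0.88 ± 0.21 (adjusted p = 0.0775), and it passed with trended and robust variances (0.0261) and when the young 14 d array was dropped (0.000376). When the aged 14 d array was dropped Kcnj5 did not pass and Kcna10 did. Kcna10 had entered the set through the young 14 d array alone, the only 14 d array then left, so this call was bound to the filter. Kcne2 (0.46, adjusted p = 0.124) and Kcnj2 (0.43, 0.134) were next and did not pass, nor did Kcnh5 (-0.37, 0.344), Kcnn3 (-0.35, 0.247) and Kcnab3 (-0.32, 0.553) in the other direction. In the young pair 35 of 70 channel genes were lower at 14 d than at 3 d (median 0.00), against 64.1% of all genes, and in the aged pair 57 (81.4%, median -0.17), against 50.6%. This difference between the ages was not tested.

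No channel gene passed the test for age over the 3 pairs of arrays, and neither did any other gene (0% higher and 0% lower of 10947). At an unadjusted p under 0.05 there were 17 of 70 channel genes and 852 of all genes, and with trended and robust variances 1 gene passed, which is not a channel gene. The largest differences, aged minus young, were -0.50 ± 0.12 for Kcnv1, -0.47 ± 0.10 for Kcns2 and -0.45 ± 0.11 for the silent subunit Kcnf1 (each limma adjusted p = 0.630), and 0.43 ± 0.16 for Kcnj16 (0.631), 0.36 ± 0.17 for Kcnj5 (0.638) and 0.24 ± 0.16 for the sodium-activated Kcnt1 (0.703). The aged array was below the young in all 3 pairs for 27 channel genes (38.6%), against 18.4% of all genes, and above it in all 3 for 5 (7.14%), against 11.3%. By pair, 51 of 70 were lower in the aged naive array (median -0.12, all genes -0.00), 36 at 3 d (-0.01, all genes -0.06) and 53 at 14 d (-0.23, all genes 0.02). The median of the 7 striatal markers was lower in the aged array of each pair too, by -0.47, -0.41 and -0.48, and the thalamic markers had a median of 0.89 higher in the aged naive array. Their part was not tested.

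The largest single age differences stood in different pairs. Kcnj16 was 0.93 higher in the aged naive array than in the young, and Kcnj5 was 0.89 higher in the aged array at 14 d, with Kcnip3 (0.58) and Kcnn4 (0.56) after it. In the other direction Kcna10, a Kcna gene above the 40th percentile on the young 14 d array alone, was at -0.78 at 14 d, Kcnv1 at -0.75, and Kcnj8, the pore of the vascular ATP-sensitive channel, at -0.70. Kcnt1 was 0.50 and 0.48 higher in the aged arrays at 3 d and 14 d and 0.24 lower when naive. The elk-type Kcnh4 changed by -0.87 between the young arrays and -0.03 between the aged arrays from naive to 3 d, and Kcnj5 by 0.99 and 1.86 from naive to 14 d. With 1 pool per age and time, these differences have no replicate and were not tested.

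**Figure D4:**
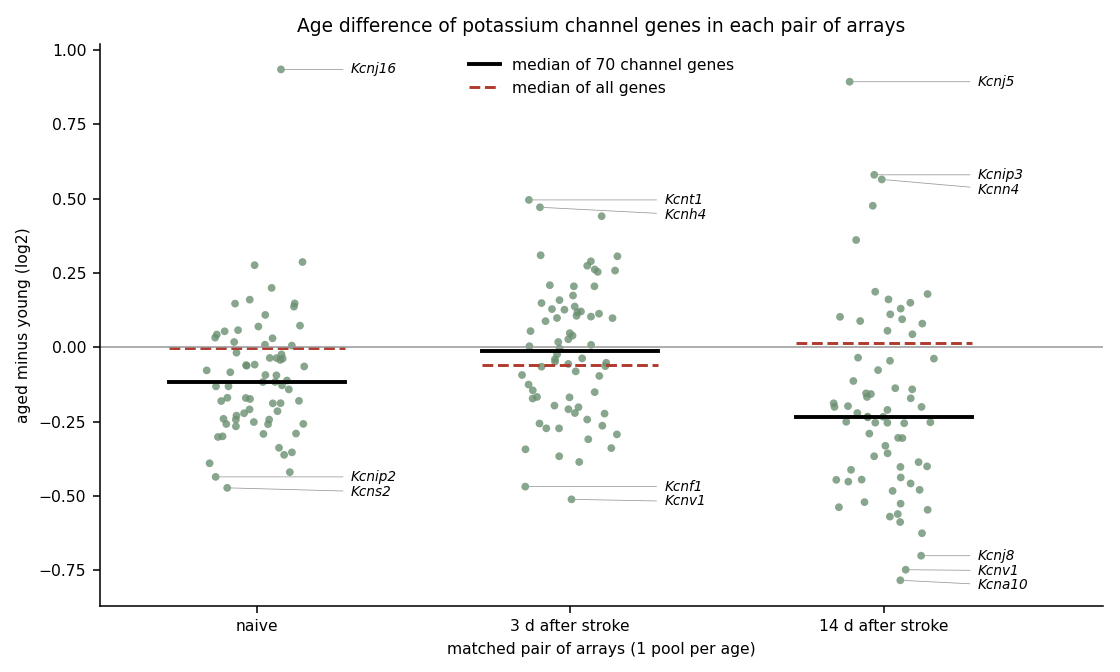
Aged minus young log2 difference of each of the 70 potassium channel genes (points) in the naive, 3 d and 14 d pairs of arrays, with the median of the channel genes (solid) and of all genes (dashed). The channel median is -0.12, -0.01 and -0.23 in the 3 pairs, and Kcnj16 when naive and Kcnj5 at 14 d lie highest.

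Of 24 genes listed as binding or placing potassium channels, 20 were measured. At 3 d 8 of them fell and 12 did not pass, and at 14 d 8 fell, 1 rose and 11 did not pass (medians -0.35 and -0.37), beside 7.87% and 11.4% of all genes lower. Amigo1, the membrane partner of Kcnb channels, was at 9.93 and 9.67 on the naive arrays, 8.95 and 8.83 at 3 d, and 9.09 and 8.60 at 14 d, lower on each stroke array, and fell by 0.91 and 0.95 on the log2 scale (limma adjusted p = 0.00336 and 0.00271). Dpp6, which speeds Kcnd channels, fell by 0.71 and 0.77 (0.00855 and 0.00617), and Dpp10, its relative, by 0.42 and 0.63 (0.0483 and 0.00999). Lrrc55, an accessory subunit of the large-conductance channel, rose by 0.81 at 14 d (0.00416). Without the aged naive array the calls of Amigo1 at 3 d (change of -0.88), Dpp6 (-0.57 and -0.62), Dpp10 (-0.34 and -0.56) and Lrrc55 (0.69) ended. The Dpp10 call at 3 d also ended with no filter, with age left out, and without the young naive or either 3 d array. At 14 d it ended without the young naive array too.

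Pumps and cotransporters that move potassium went both ways. Of 21 listed genes 16 were measured, with 4 higher and 6 lower at 3 d and 3 higher and 5 lower at 14 d. Among all genes 14.4% were higher and 7.87% lower at 3 d, and 13.6% higher and 11.4% lower at 14 d. The share of these 16 genes that was higher at 14 d (18.75%) was thus near that of all genes. Fxyd1, a regulator of the sodium pump, was at 10.64 and 11.02 on the naive arrays, 11.42 and 12.11 at 3 d, and 11.56 and 12.36 at 14 d, higher on each stroke array and in each aged array. It rose by 0.94 and 1.13 (limma adjusted p = 0.00347 and 0.00157), and the potassium-chloride cotransporters Slc12a7 (0.84 and 1.07, adjusted p = 0.0140 and 0.00501) and Slc12a4 (0.64 and 0.82, 0.0135 and 0.00483) rose with it. Slc12a5, the cotransporter that keeps chloride low in neurons, fell by 0.55 and 0.66 (0.0164 and 0.00750), and Hcn2, a cation channel of pacemaker currents, by 0.73 and 0.82 (0.0162 and 0.0100). The 3 d calls of Slc12a7 (adjusted p = 0.135), Slc12a4 (0.158) and Slc12a5 (0.172) ended without the young 3 d array, among others. Without the aged naive array the calls of Hcn2 (0.193 and 0.135) and the 14 d calls of Slc12a4 (0.0627) and Slc12a5 (0.0873) ended, and without the young naive array that of Slc12a7 (0.0580). The 3 d call of Fxyd1 ended with age left out (0.0759) or without the aged naive array.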

How the data were processed

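Total RNA was amplified, labelled with biotin and hybridised to 6 Affymetrix arrays, per the labels' protocols. The deposited values, 1 for each probe set on each array, were taken as log2: the base is inferred from their range, and fold changes depend on it. R 2.14.0 and affy were used, per the submitters' processing notes; how background, summary and normalization were done, and the build, is not given in the sources used here. Array medians lay between 7.09 and 7.15 and arrays correlated at 0.962 to 0.995 over 28826 probe sets. A common scale hides a change in total RNA, and arrays compress large folds. The number of arrays, 1 per group, limits the precision, and no batch label was given, so array and group cannot be told apart.

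The platform annotation names a single gene for 15209 probe sets and several for 306, and 11513 of the former passed the filter. Gene IDs of all 70 members matched RefSeq on GRCr8 and 0 symbols changed. Limma 3.58.1 in R 4.3.3 fitted age + time over all 6 arrays (2 residual degrees of freedom, prior 5.56) with Benjamini-Hochberg adjustment; the script was tested on simulated data. With 1 array per group, the error is the departure of the arrays from a common time effect and a common age effect. The SEs and p-values rest on this departure and not on a spread between replicate pools. A change that differs between the ages therefore enters the error. Leaving out an array leaves 1 residual degree of freedom, and the lone array of a time is assumed to vary like the others.

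A rule picked the members to name. It took the 10 with the largest rise and fall among those past the threshold in each comparison (where under 3 passed, up to 3 that did not). It also took the highest and most changed member of each subfamily, and the 5 highest and lowest members for age in each pair. Members whose young and aged changes differed by 0.8 or more were picked too. Some picks are not given with values here, among them Kcng1, Kcng3, Kcnh1, Kcnmb4 and several of the age picks. Some members outside the rule, such as Kcng4, are. Members, gene lists and this rule were chosen with earlier results of these data known. Alternatives were quantile normalization, equal array medians, no filter or the 60th percentile, the mean of probe sets, trended and robust variances, age or time left out, and each array left out. Tables and figures used Python 3.11.15, pandas 2.3.3, numpy 2.4.6 and matplotlib 3.10.9.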

Additional observations from a re-analysis of the deposited data

Results flagged for a closer look

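Some channel genes moved in opposite directions in the young and the aged pair of arrays, by at least 0.2 on the log2 scale in each. With 1 pool per age and time the difference was not tested, and no cause was tested.

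From naive to 3 d, Kcnj16, a rectifier subunit of astrocytes, changed by 0.32 between the young arrays and by -0.41 between the aged arrays. From naive to 14 d it changed by 0.26 (young) and -0.52 (aged). Over the same interval Kcnj8 changed by 0.33 and -0.23, and Kcna10 by 0.49 and -0.21, young before aged. Kcnt1 went the other way, with -0.32 when young and 0.39 when aged.

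Between 3 d and 14 d, Kcna10 changed by 0.85 (young) and -0.24 (aged), and this gene was above the 40th percentile on the young 14 d array alone. Kcng4, a silent subunit, changed by 0.34 and -0.39, Kcnj14, an inward rectifier, by 0.25 and -0.21, and Kcnj8 by 0.22 and -0.44. Kcnn4 changed by -0.24 when young and 0.36 when aged.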

How the results depend on the processing

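No paired analysis was possible because each group holds 1 array: the groups share the single replicate number 1, which cannot serve as a block. The fit of age and time already sets young against aged at each time. Over the settings that keep all 6 arrays, the channel genes lower at 3 d numbered 20 to 33 and those lower at 14 d 26 to 41. Of the 31 calls at 3 d, 18 were tested and passed under every such setting, and of the 36 at 14 d, 24. With arrays left out too, 2 and 5 did. Leaving out each array in turn gave 3 to 37 genes lower and 0 to 5 higher at 3 d, 8 to 42 lower and 1 to 5 higher at 14 d, and 0 to 1 higher at 14 d than at 3 d. With trended and robust variances 1 channel gene, Kcnj5, was higher at 14 d than at 3 d. No value reversed its direction. For single genes, the call was kept or stayed absent in 835 combinations of gene and setting, was lost in 185 and was gained in 2. The cause was not tested, beyond the fewer arrays in a fit that leaves one out. The number of arrays limits what can be seen: with 1 pool per group, age effects within a time have no error.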
